A study of Mus musculus with 11 samples.

Results

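The data cover mouse chromosome 6 from its 20 Mb point to its end, in mammary tumours of mice that carry the activated Pik3ca H1047R allele. The region was taken as every genomic probe on chromosome 6 with a start above 20 Mb in mouse build mm9, which gave 9258 of the 170305 probes on the array (5.44%), from position 20029043 to position 149512014. It excludes the Met gene, which lies nearer to the centromere. The probes had a median spacing of 10.6 kb, and 67.4% of them carried 1 of 1069 gene names in the array annotation. The positions are marked by Plxna4, Pot1a, Herc3 and Crebl2, all 4 of which were found on the array inside the region.

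DNA of each of 11 tumours, labelled in Cy5, was compared on an Agilent mouse genomic array with liver DNA from its own animal, labelled in Cy3. Tumours and livers alike came from Pik3ca H1047R mice of the strain Mixed FVBN/Bl6, so the mutant allele and the strain mixture are shared by both channels. The promoter or Cre that drives the allele, and the age of the animals, are not given in the sources used here. The 11 tumours form 1 group and were counted as separate animals. Every value below is a tumour relative to its own liver, given as a log2 ratio centred on the array median.

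A comparative genomic hybridisation array compares the amount of DNA, not of RNA. A log2 ratio of 0 means the same relative dose as in the liver, a positive ratio a gain and a negative ratio a loss. Normal cells in a tumour sample pull every ratio toward 0, so ratios cannot be read as copy numbers here. Among the genes of the region, Pot1a encodes a protein that binds single-stranded telomeric DNA, Plxna4 a receptor for semaphorins, Herc3 a ubiquitin ligase of the HECT family and Crebl2 a protein related to the CREB transcription factors. Braf, a kinase of the RAS and MAPK pathway, also lies here.

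The arrays differed in precision, and their number limits the precision of every mean. The noise of neighbouring probes had an SD from 0.131 in tumour 8 to 0.553 in tumour 9, with 0.512 in tumour 11 and a median of 0.177. Spots that did not rise well above background made up from 0.0803% to 12.8% of an array, the most in tumour 9. Tumour 11 correlated below -0.3 with 4 of the other 10 arrays over all probes (lowest r -0.652), and the lowest r among pairs of the others was -0.039. The 4 arrays were tumours 4, 5, 9 and 10, at -0.605, -0.611, -0.652 and -0.317. With tumours 1, 2, 3, 6, 7 and 8, which have calls in the region, r ran from -0.219 to 0.254. Tumours 4, 5 and 9 correlated with one another at 0.715 to 0.784 over all probes and at 0.706 to 0.787 over the region, where they have no call, while the highest r of any other pair without tumour 11 was 0.478. Their labels number them as separate tumours. They were counted as separate animals, and what they share was not tested. The labels state the dyes of the tumour 11 array, so its direction was kept. What turning its sign does to counts of tumours above or below 0 is given in the text beside those counts. Arrays lay on 3 slides, and slide 2 (tumours 4, 7, 9 and 11) was the one read with the later scanner software.

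The probes at the edges of the amplified islands of tumour 6 are shown because they place the borders of those islands to within about the spacing of the array. Each is an array probe in mm9, printed 5′ to 3′ as the array lists it, and its strand is not given in the sources used here. Each pair below stands on either side of a border, and no base is in capitals because no part of a probe was singled out.
Snd1, last probe before the island, chr6:28687078-28687137: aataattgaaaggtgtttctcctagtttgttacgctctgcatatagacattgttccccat
Snd1, first probe inside, chr6:28695034-28695093: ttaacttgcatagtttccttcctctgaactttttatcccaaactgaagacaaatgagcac
Snd1, last probe inside, chr6:28764188-28764247: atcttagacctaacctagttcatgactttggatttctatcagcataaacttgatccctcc
Snd1, first probe after the island, chr6:28774532-28774591: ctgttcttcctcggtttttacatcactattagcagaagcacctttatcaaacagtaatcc
Mkln1, last probe before the block, chr6:31350660-31350719: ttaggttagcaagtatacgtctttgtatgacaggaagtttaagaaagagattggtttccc
Mkln1, first probe inside, chr6:31359959-31360018: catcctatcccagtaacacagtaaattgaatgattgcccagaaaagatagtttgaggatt
Plxna4, last probe inside, chr6:32396601-32396660: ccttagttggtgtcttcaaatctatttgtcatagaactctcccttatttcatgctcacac
Plxna4, first probe after the block, chr6:32408184-32408243: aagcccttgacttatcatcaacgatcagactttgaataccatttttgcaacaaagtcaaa
Dgki, last probe before the island, chr6:37155542-37155601: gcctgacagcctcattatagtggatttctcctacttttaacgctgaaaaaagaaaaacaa
Dgki, first probe inside, chr6:37162320-37162379: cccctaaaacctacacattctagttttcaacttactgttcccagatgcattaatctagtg
Dgki, last probe inside, chr6:37192707-37192766: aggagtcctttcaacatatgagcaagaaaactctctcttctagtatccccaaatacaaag
Dgki, first probe after the island, chr6:37203982-37204040: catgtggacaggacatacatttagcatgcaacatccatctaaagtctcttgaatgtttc

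In tumour 6 the ratio jumped at these borders between neighbouring probes. At the entry to the Mkln1 block the probe inside read 3.48 and the probe before it -0.29. At the exit inside Plxna4 the last probe of the block read 3.44 and the next probe -0.18. The same 2 exit probes scattered from -1.57 to 1.64 and from -1.11 to 0.78 over the other 10 tumours, so the jump is read from the run of probes and not from a single one.

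The first comparison asked whether the region as a whole lay above or below the array median. Its mean log2 ratio was -0.22 in tumour 1, 0.041 in tumour 2, -0.072 in tumour 3, -0.018 in tumour 4, -0.017 in tumour 5, -0.10 in tumour 6, -0.22 in tumour 7, 0.047 in tumour 8, -0.031 in tumour 9, 0.0016 in tumour 10 and 0.0096 in tumour 11. Tumours 1 and 7 were the lowest, and 4 of 11 tumours lay above 0. Tumour 11 is among these 4 and would lie below 0 with its sign turned. The mean was -0.053 ± 0.092 (SD, n = 11), which did not pass an exact two-sided sign-flip permutation test (p = 0.0908, adjusted p = 0.229 over 20 chromosome units). By slide, the mean was 0.0052 for the 3 tumours of slide 1, -0.064 for the 4 of slide 2 and -0.084 for the 4 of slide 3. The values overlap 0 on both sides, with tumours 1 and 7 apart from the other 9.

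**Figure D1:**
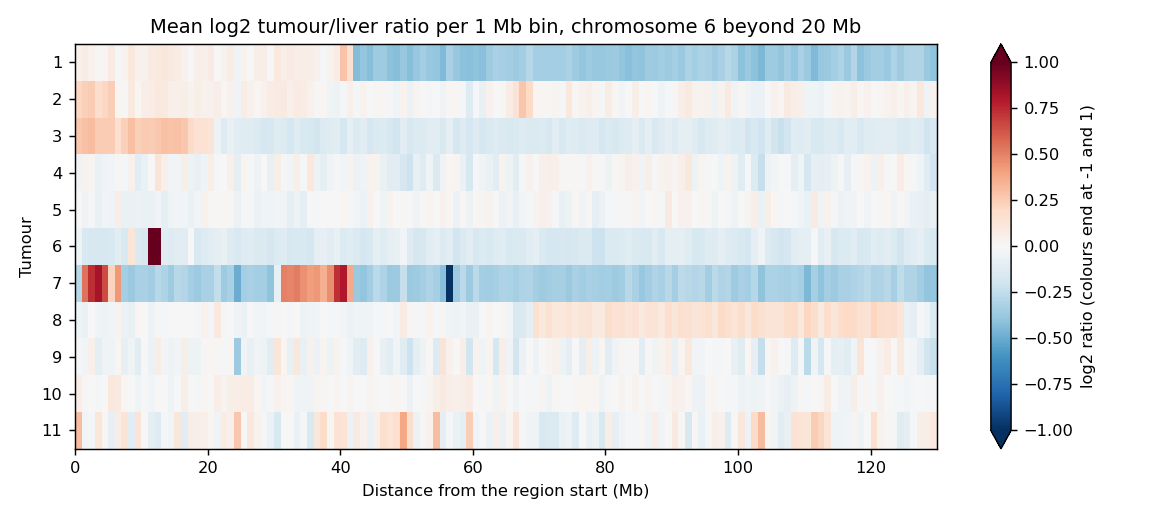
Mean log2 tumour/liver ratio of each 1 Mb bin (x axis, distance from the region start in Mb) in each of the 11 tumours (rows), with colours ending at -1 and 1. Tumours 1 and 7 are low over most of the region, tumour 6 has a short dark red block, and tumour 7 has red stretches near its start and about 30 Mb to 42 Mb in.

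A segment counted as a gain or a loss where it held 10 or more probes and its mean was 0.2 or more away from 0, and 6 of the 11 tumours had calls in the region. Tumour 7 had 13 gains and 7 losses, tumour 1 had 1 gain and 7 losses, tumours 2 and 3 each had 2 gains and 1 loss, tumour 6 had 2 gains and 2 losses, and tumour 8 had 2 gains. Tumours 4, 5, 9, 10 and 11 had no call here. In total 22 gains and 18 losses were called, and the 7 losses of tumour 1 adjoin one another. So do the 2 gains of tumour 6, which are 1 block split inside Plxna4 between 32141531 and 32147597. Without tumour 7 the totals were 9 gains and 11 losses, and without tumour 1 there were 11 losses.

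Calls covered 99.6% of the region's probes in tumour 7 and 67.4% in tumour 1, beside 27.0% and 23.9% of the probes on the other autosomes in the same tumours. In tumour 8 the order was the opposite, 0.529% of the region against 37.6% of the other autosomes, and in tumour 2 it was 6.92% against 22.4%. Across tumours the share in the region minus the share on the other autosomes averaged 4.22 ± 29.6 percentage points (SD, n = 11). It was positive in 3 of 11 tumours and did not pass the exact sign-flip permutation test (p = 0.695, adjusted p = 0.695). Without tumour 7 the mean difference changed sign, to -2.62 points.

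Counted in 1 Mb bins, a bin being called where at least 50% of its probes lay in calls of 1 direction, losses covered 113 of the region's 130 bins in tumour 7 and 88 in tumour 1. Over the 2531 bins of the genome, 23.7% and 18.8% were lost in the same tumours. Gains covered 17 bins in tumour 7 and 17 in tumour 3, where 5.77% and 11.9% of all bins were gained. Tumour 2 had 9 gained bins (20.5% of all bins), and tumour 1 had 2 (6.28% of all bins).

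The remaining calls covered few bins of the region. Tumours 6 and 8 each had 1 gained bin, beside 9.6% and 13.7% of all bins. Tumours 3 and 6 each had 1 lost bin, beside 0.316% and 0.553% of all bins. Tumour 2 had no lost bin (1.11% of all bins), and neither had tumour 8 (19.2%). Tumour 4 had no call here, with 5.45% of all bins gained and 1.9% lost, nor had tumour 5, with 1.98% lost, or tumour 11, with 0.593% gained and 0.119% lost.

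Losses were shared by at least 2 tumours in 88 bins, from 62 Mb to 149 Mb, whereas 22% of all bins in the genome were lost in at least 2 tumours. At least 3 tumours shared a loss in 2 bins, at 99 Mb and 126 Mb (1.78% of all bins). Gains were shared by at least 2 tumours in 10 bins (19.3% of all bins) and by 3 in 5 bins, at 21 to 25 Mb, where 13.6% of all bins were gained in at least 3. In 15 of the 130 bins a gain in 1 tumour met a loss in another, against 10% of all bins.

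The 5 bins gained in 3 tumours lay where tumours 2, 3 and 7 were all high. This sharing depends on the call threshold of 0.2, since at 0.3 tumours 2 and 3 had 0 gains in the region. With normexp background correction tumour 2 had 1 gain and 1.62% of the region's probes in calls, beside 2 gains and 6.92% in the main setting. The bin at 22 Mb read 0.25 in tumour 2, 0.31 in tumour 3 and 0.74 in tumour 7, and from -0.16 to 0.054 in the other 8 tumours. Those 3 tumours stood above all the others there. The bin holds Ptprz1, a receptor-type tyrosine phosphatase, which read 0.74 in tumour 7, 0.34 in tumour 3 and 0.21 in tumour 2.

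Tumour 6 carried 4 runs of probes above a log2 ratio of 1, with means from 2.95 to 3.42 and flanks from -0.23 to -0.17. A run inside Snd1, whose protein takes part in RNA processing and transcription, covered 28695034 to 28764247 with 7 probes at 3.37 ± 0.10 (SD over probes), or 10.3 times the liver dose in linear ratio. With under 10 probes it was not called. The 34 other probes of Snd1 read -0.17 ± 0.14, so 7 of its 41 probes were in the run.

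A larger block began inside Mkln1, which encodes muskelin, a part of the CTLH ubiquitin ligase, and ended inside Plxna4. From 31359959 to 31729990 it held 28 probes at 3.42 ± 0.23, over Mkln1, Podxl (podocalyxin, a sialomucin of epithelial surfaces), AK132717 and AK080631. From 31831348 to 32396660 it held 44 probes at 3.27 ± 0.27, over 1700012A03Rik and Plxna4. Between these runs lay 2 probes, at 31771274 and 31796661, that read -0.32 and -0.24, the level of the flanks.

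Plxna4 was cut by the border of this block. In tumour 6, 31 of its 43 probes lay inside and read 3.21 ± 0.28, and the 12 outside read -0.14 ± 0.090. Mkln1 was cut likewise, with 11 probes inside at 3.45 ± 0.26 and the remaining probe at -0.29. A mean over all probes of either gene, 2.27 for Plxna4 and 3.14 for Mkln1, therefore mixes both levels. Podxl lay wholly inside, with its 4 probes at 3.31.

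The last run lay inside Dgki, a diacylglycerol kinase, from 37162320 to 37192766, with 4 probes at 2.95 ± 0.43. Like the Snd1 run, it had too few probes and was not called. The other 44 probes of Dgki read -0.14 ± 0.17. The 12 probes of Met, which lies outside the region, read 3.38 ± 0.135 in the same tumour, between the lowest and the highest of the 4 runs.

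The high ratios came from the red channel, that of the tumour. In the 28-probe run the median red signal was 11783 and that of the flanking probes 1176, against median green signals of 1031 and 1398. Over the same probes the other 10 tumours had means from -0.35 to 0.26, all below the runs of tumour 6. Counting runs of at least 3 probes above 1, tumour 6 had 4 in the region and 0 on the other autosomes. By the same count tumour 7 had 8 and 0, and tumour 11 had 1 and 18.

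**Figure D2:**
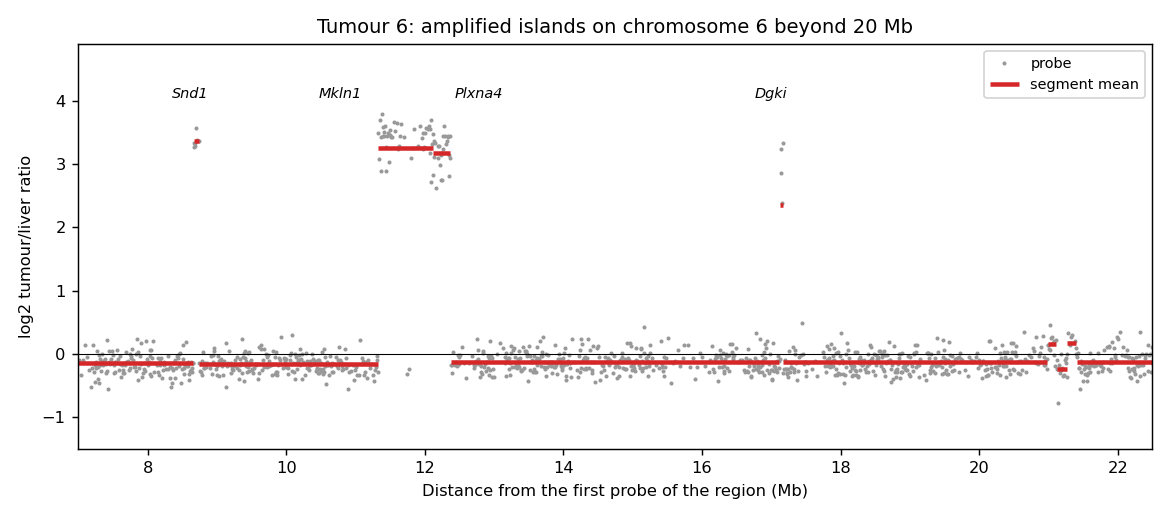
Log2 tumour/liver ratio of each probe (grey points) and segment means (red lines) in tumour 6, against the distance in Mb from the first probe of the region. Probes inside Snd1, the Mkln1 to Plxna4 block and Dgki stand near 3, with the probes between them near -0.15.

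Tumour 7 had the most broken profile. From 21300302 to 61791419, a stretch of 40.5 Mb, its level changed between 21 segments, of which 13 were gains (15.5 Mb in all, means from 0.23 to 1.30), 3 were losses (24.3 Mb, -0.34 to -0.33) and 5 were not called. Beyond that stretch, to the end of the chromosome, it was lost at -0.32 to -0.34 apart from a deeper segment described below.

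The gain nearest to the region's start covered 21300302 to 24623317 at 0.79 ± 0.22 (SD over 262 probes), with Wnt16, Ptprz1, Fezf1, Wasl and Cadps2, which has a role in the release of dense-core vesicles. Pot1a stood in a segment from 25657997 to 26230537 at 0.67 ± 0.23 (30 probes). Next to it, 13 probes that carry no gene name, from 26262801 to 26562818, read 1.30 ± 0.29, the highest mean of a called segment in this region outside tumour 6. The level of the next 14.5 Mb was -0.33.

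The gains resumed at 50546172. Segments at 0.49 and 0.48 ran up to 56941148, with 5 uncalled probes at -0.60 between them. They covered the Hoxa cluster, whose genes pattern the body axis, and its neighbours. After them the level changed within short distances, with Herc3, Fam13a and Gprin3 at 0.83 ± 0.23 (58 probes, 58692025 to 59709733) and Mmrn1, which encodes a multimerin, at 1.07 ± 0.25 (36 probes, 60470536 to 61097452). The segments beside these gains stood at 0.24, 0.40 and 0.35 and were also called as gains. The last gain, 61622361 to 61791419, stood at 1.00 ± 0.24 (17 probes).

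**Figure D3:**
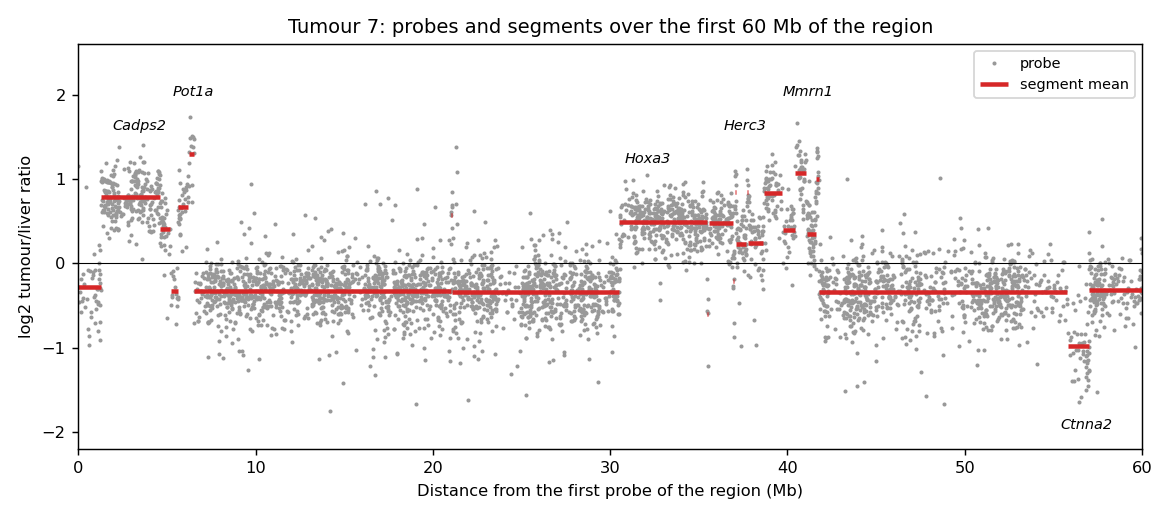
Log2 tumour/liver ratio of each probe (grey points) and segment means (red lines) in tumour 7 over the first 60 Mb of the region, against the distance in Mb from its first probe. Called segments stand at about -0.33 or in gains of 0.23 to 1.30, with a loss near -1 at Ctnna2. From 57053911 to 61791419 the level alternates between 0.23 to 0.40 and 0.83 to 1.07.

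A loss of 1.18 Mb in tumour 7, from 75871736 to 77050674, stood at -0.98 ± 0.39 (51 probes), below the -0.34 and -0.32 of its neighbours. Of Ctnna2, which encodes a neuronal alpha-catenin and is among the longest genes here, 21 of 113 probes lay inside the segment and read -1.03 ± 0.44. The 92 other probes read -0.33 ± 0.26. The same stretch read -0.36 in tumour 1 and from -0.13 to 0.052 in the other 9 tumours.

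In tumour 1 the region changed level once over a long distance. To 59815936 it stood at 0.054, and from 61964142 to the end at -0.40 to -0.32 (with 1 deeper segment of 11 probes). Between them lay a gain from 59842999 to 61668292 at 0.32 ± 0.17 (123 probes) over Mmrn1, and 9 probes inside AK173231 at -0.86 ± 0.33, too few for a call. The deeper segment, over Clec4b1 and Clec4a2, genes for C-type lectin receptors of myeloid cells, stood at -0.69 ± 0.17.

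Tumour 3 was gained up to 37323108, at 0.28 and 0.27, with 12 probes at -0.13, from 26625800 to 26883827, between the gains. It then stood at 0.14 to 41010132 and at -0.14 to -0.13 over most of the remainder. A loss at 125886988 to 126606210 over Ano2 and Ntf3, which encodes neurotrophin-3, stood at -0.29 ± 0.17 (45 probes). Tumour 2 was gained up to 26122962 at 0.21 and from 86381014 to 88870271 at 0.24, with standard deviations over probes above 0.2.

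Tumour 8 changed level in the later part of the region without reaching the threshold. From 88841517 to 145352102 its long segments stood at 0.13, 0.15 and 0.16, beside -0.14 just before. The segment from 117491712 to 118047188 was called at 0.26. Tumour 6 was lost at 98468945 to 99525713 at -0.25 ± 0.12 (72 probes), which holds Foxp1, a forkhead transcription factor. The bins at 97 Mb and 100 Mb, on either side, read -0.14 and -0.15 in this tumour. Its other loss, 15 probes at -0.24 from 41144824 to 41290071, lies in the T-cell receptor beta interval described below. At a call threshold of 0.3 tumour 6 had 0 losses in the region. Tumours 9 and 11 gave 1 segment each over the whole chromosome, at -0.031 and 0.011, with probe SDs of 0.58 and 0.54.

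Level switches, counted as borders between neighbouring segments whose means differ by at least 0.2, numbered 24 in tumour 7, 11 in tumour 8, 10 in tumour 6, 6 in tumour 1, 6 in tumour 2 and 4 in tumour 3. The other 5 tumours had 0. Per 10 Mb, the region against the other autosomes gave 1.85 against 0.133 in tumour 7, 0.850 against 0.217 in tumour 8, and 0.772 against 0.106 in tumour 6. In tumours 6 and 7 this was the highest rate of any chromosome of the tumour. The difference averaged 0.291 ± 0.549 switches per 10 Mb (SD, n = 11), was above 0 in 6 of 11 tumours and did not pass the exact two-sided sign-flip permutation test (p = 0.0781, adjusted p = 0.156). Without tumour 7 it averaged 0.148. With a penalty factor of 1 in place of 2 in the segmentation it was 0.667, with an adjusted p of 0.0313 by the same exact permutation test. The counts of tumours 3, 6, 7 and 8 include borders from 41010132 to 41443853, inside the T-cell receptor beta interval described below. Of the 4 switches of tumour 3, those at 41010132 and 41101563 lie there. The difference without these borders was not computed.

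**Figure D4:**
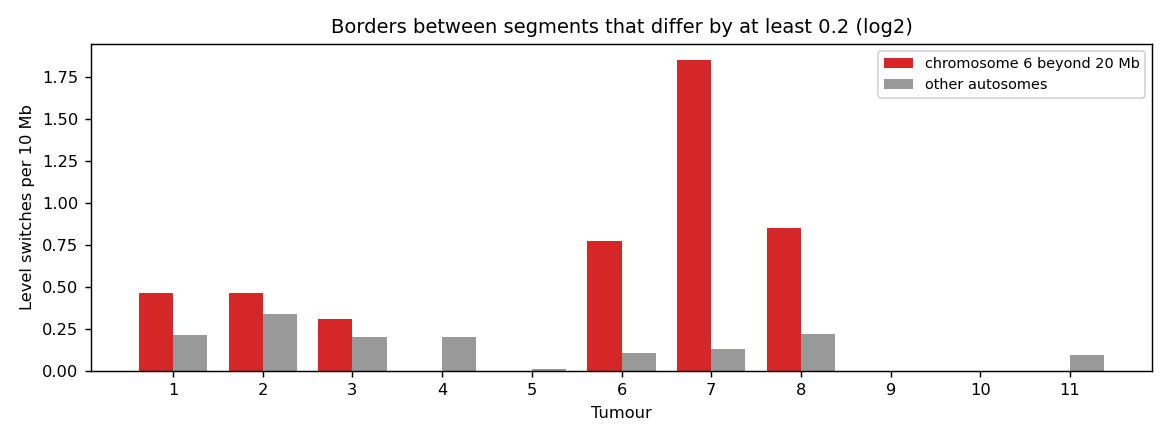
Level switches per 10 Mb (y axis) on chromosome 6 beyond 20 Mb (red bars) and on the other autosomes (grey bars) in each tumour. The region exceeds the other autosomes in 6 of the 11 tumours, most in tumour 7 (1.85 against 0.133).

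Borders of different tumours sometimes lay close together. In tumours 3, 6 and 8 a border lay between the same pair of probes, 41010132 and 41018389, and in tumour 7 one lay 28.0 kb away. Tumours 1 and 7 had borders 53.9 kb apart after 61616717 and 42.2 kb apart after 61791419, and tumours 3 and 7 had borders 40.9 kb apart after 26562818. Tumours 1 and 2 had borders 12.2 kb apart after 123079886. All 10 borders of tumour 6 had the same gene name on both sides, as did 7 of 24 in tumour 7, 5 of 11 in tumour 8, 3 of 6 in tumours 1 and 2 each and 2 of 4 in tumour 3. Of all neighbouring probe pairs in the region, 55.3% carry the same gene name. In tumour 6, the borders at 41010132, 41137456, 41290071 and 41430981 lie in the T-cell receptor beta interval described below. So do those of tumour 3 at 41010132 and 41101563, and some of those in tumours 7 and 8. The other borders of tumour 6 are paired edges of its amplified islands.

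The 41 Mb borders lie between Moxd2 and Ephb6, the interval that holds the T-cell receptor beta segments. The stretch 41018389 to 41112757 (10 probes) read 0.62 in tumour 8, 0.39 in tumour 3, 0.28 in tumour 2, 0.23 in tumour 7, 0.19 in tumour 9 and 0.18 in tumour 6. It read 0.10 in tumours 1 and 10, 0.084 in tumour 4, 0.078 in tumour 5 and -0.30 in tumour 11. The stretch was above 0 in 10 of 11 tumours, and in 11 of 11 with tumour 11 turned (0.30).

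Across tumours, limma with an intercept and empirical Bayes was fitted to all 2531 bins of the genome, and a bin was called where its mean was 0.1 or more from 0 and its Benjamini-Hochberg adjusted p was under 0.05. In the region 2 of 130 bins were lower in the tumours (1.54%), against 3.48% of all bins, and 0 were higher, against 9.96%. At an unadjusted p below 0.05, 37 of the 130 bins stood out (28.5%), against 24.8% of all bins.

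The 2 bins were the last of the chromosome, at 148 Mb and 149 Mb. The bin at 148 Mb read -0.37 in tumour 1, -0.39 in tumour 7 and from -0.20 to -0.012 in the other tumours except tumour 11, which read 0.065. Its mean was -0.14 (adjusted p = 0.0247 by limma), with 10 of 11 tumours below 0. The bin at 149 Mb had a mean of -0.15 (adjusted p = 0.0284 by limma), with 9 of 11 below 0 and tumour 11 at 0.10. With its sign turned, tumour 11 would lie below 0 in the bins at 148 Mb and 149 Mb. Neither bin was called without tumour 1, 3 or 7, while 9 bins were called lower without tumour 11 and 15 with its sign turned. With slide as a random block 12 bins were called lower, with mode centring 1, and with the correlated tumours 4, 5 and 9 averaged as 1 sample 0.

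The same limma fit over 9377 gene names with at least 3 probes called 18 of the region's 482 genes. Of these, 17 were lower (3.53%), against 2.29% of all genes, and 1 was higher (0.207%), against 4.6%. The 17 had means from -0.36 to -0.16, and 11 of them rest on 3 or 4 probes. All 17 lay between 70656943 and 149045371, in the part of the region that was lost in tumours 1 and 7. The mean of each gene thus includes those broad losses, and a loss of the gene apart from them was not tested. In tumour 11, 10 of the 17 were above 0. Without tumour 11 the fit called 70 genes lower, with its sign turned 84, and without tumour 3 it called 0. The gene called higher was lost without tumour 3 or 8, with tumour 11 turned and with tumours 4, 5 and 9 averaged as 1 sample, where 3 genes were called lower. With slide as a random block 75 genes were called lower and with mode centring 5. Without tumour 1, 6 or 7 the fit called 2 genes lower, without tumour 4 it called 4, without tumour 2 it called 5, without tumour 5 it called 6 and without tumour 8 or 9 it called 11. At an unadjusted p below 0.05, 114 of the 482 genes stood out (23.7%), against 23% of all genes.

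Crebl2 had the lowest mean of the region, -0.36 (SE 0.074, adjusted p = 0.0187 by limma), and was below 0 in 10 of 11 tumours, or in 11 of 11 with tumour 11 turned (-0.019). It read -0.58 in tumour 1, -0.10 in tumour 2, -0.38 in tumour 3, -0.51 in tumour 4, -0.23 in tumour 5, -0.33 in tumour 6, -0.71 in tumour 7, -0.049 in tumour 8, -0.89 in tumour 9, -0.20 in tumour 10 and 0.019 in tumour 11. The values rest on 3 probes, and the middle one, at 134791076, read -1.89 in tumour 9, -1.21 in tumour 7, -1.03 in tumour 4 and 0.86 in tumour 11. The outer probes read between -0.88 and 0.19 over all tumours.

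AK145365 (-0.30, adjusted p = 0.0212) and Ccdc48 (-0.25, adjusted p = 0.0288, limma for both) were the next lowest of the called genes. Vgll4, a cofactor of the TEAD transcription factors, was below 0 in all 11 tumours, at -0.20 (adjusted p = 0.0224 by limma), and in 10 of 11 with tumour 11 turned (0.017). Adipor2, an adiponectin receptor, and Il5ra, the interleukin-5 receptor alpha chain, were also called, at -0.18 and -0.20. Of these, Ccdc48, Vgll4, Adipor2 and Il5ra were named after their values were seen.

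Rasgef1a, an exchange factor for small GTPases of the RAS family, was the single gene called higher, at 0.30 (SE 0.068, adjusted p = 0.0233 by limma), above 0 in 10 of 11 tumours, or in 9 of 11 at a mean of 0.17 with tumour 11 turned. Its 3 probes disagreed. The middle probe, at 118025525, read 0.49 to 1.42 in tumours 1 to 10 and -0.058 in tumour 11, while the outer probes spread from -0.78 to 1.60. In tumours 1 to 10 the middle probe was the highest of the 3. In tumour 11, where the gene read highest (0.70), the outer probes read 0.57 and 1.60. Rasgef1a lies inside the gain called in tumour 8 from 117491712 to 118047188, and it read 0.63 in that tumour.

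The other markers each stood high in 1 to 3 tumours and did not pass the test across all 11. Pot1a (9 probes) read 0.64 in tumour 7, 0.29 in tumour 3, 0.17 in tumour 2 and from -0.27 to 0.10 in the other 8 (mean 0.075, adjusted p = 0.528 by limma). Herc3 (10 probes) read 0.81 in tumour 7 and from -0.17 to 0.16 in the other 10 (mean 0.063, adjusted p = 0.640). Plxna4 read 2.27 in tumour 6, 0.24 in tumour 3, -0.30 in tumour 7 and from -0.13 to 0.14 in the other 8 (mean 0.21, adjusted p = 0.509). For each of these, the highest tumour stood apart from the others.

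**Figure D5:**
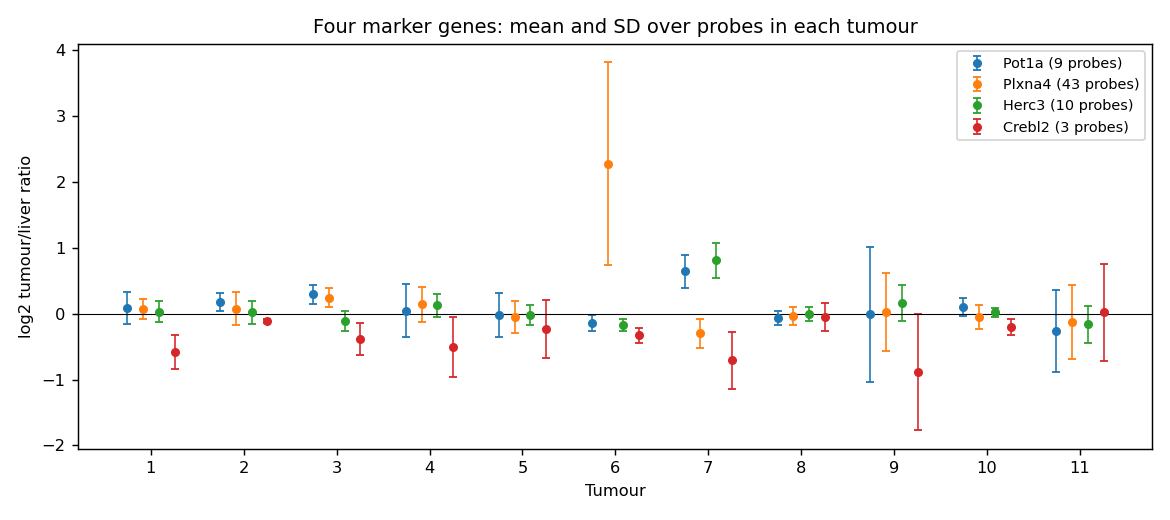
Log2 tumour/liver ratio of Pot1a, Plxna4, Herc3 and Crebl2 in each tumour (points, mean over the gene's probes, error bars, SD over those probes). Plxna4 is highest in tumour 6, Pot1a and Herc3 are highest in tumour 7, and Crebl2 is below 0 in 10 of 11 tumours.

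Of the members of the 11 gene lists, Crebl2 was the single one called by limma. It was 1 of the 6 tested members of the list Crebl2 and neighbours, which is named after this marker. Of the region's 482 genes, 3.53% were called lower and 0.207% higher. The RAS and MAPK list had 7 tested members of 10 and a median mean of -0.094, the lowest of the lists. Braf read -0.40 in tumour 7 and from -0.15 to 0.17 in the others.

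Cell-cycle genes had 3 tested members (median mean -0.079), DNA repair and telomere genes 5 (-0.077) and tumour suppressors 5 (-0.064). For comparison the median over the region's genes was -0.065 and that over the other genes of the genome -0.0088. Long genes had 15 tested members and a median mean of -0.065, with Ptprz1 highest. In tumour 7 the median of the list HERC and neighbours was 0.81 and that of the long genes -0.33. The plexins and their neighbours (9 tested, median mean 0.035), the HERC list (6, 0.049), the Crebl2 neighbours (6, -0.076), Hoxa3 (0.035) and Pik3c2g (-0.060) make up the rest. No C-type lectin or NK receptor gene had the 3 probes needed for the test, and the list's median was -0.34 in tumour 1, -0.33 in tumour 7 and from -0.14 to 0.16 in the other tumours.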

How the data were processed

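The members and gene lists were chosen with earlier results of these data known. Per the file headers, the authors read 7 arrays with Agilent Feature Extraction 10.5.1.1 and 4 with 11.0.1.1, and probes are placed on mm9. Partek, with no version, is named in the submitters' processing notes. The deposited scanner files give each spot's intensity in both channels, background-subtracted and dye-normalized by the authors' software, and a LogRatio column on the log10 scale of red over green. The authors' deposited value table holds the same ratios as log2, averaged per probe, uncentred, with column medians from -0.049 to 0.021.

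Here the log2 of processed red over green signal was averaged over the non-outlier spots of each probe and centred on the array median. Segments came from exact optimal partitioning (penalty factor 2, multiplied by the noise variance and by the logarithm of the probe number, at least 5 probes, probes pulled in to 4 SD of a running median of 11). Bins needed 10 probes and genes 3. Genes named are the 4 markers, up to 5 per focal segment (at most 10 Mb, absolute mean at least 0.6), the 3 highest and 3 lowest means, and list members. Tests were limma 3.58.1 in R 4.3.3 and exact sign-flip permutations in Python 3.11.15, both tested on simulated data. Normexp (offset 50), the value table, mode centring, a GC fit, dim probes left out, tumour 11 turned, slides and each tumour left out were tried. Normexp used median spot signals, because the compact files hold no means. Chromosome Y was left out. Some genes of the lists are not reported here.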

Additional observations from a re-analysis of the deposited data

How the results depend on the processing

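The mean of the region stayed below 0 and short of the threshold under every alternative, from -0.062 to -0.036 with 1 tumour left out, except within slide 1, where it was 0.0052. The share of probes in calls minus that of the other autosomes ran from -2.62 (without tumour 7) to 8.35 with 1 tumour left out, and was -0.12 with a call threshold of 0.15. The switch difference was 0.148 to 0.340 with 1 tumour left out, and passed its test at 0.667 with a penalty factor of 1 in place of 2. Gains numbered 9 to 22 and losses 11 to 18 with 1 tumour left out, the lowest counts of gains without tumour 7 and of losses without tumour 1 or 7. Gains were 39 with a penalty factor of 1. Losses were 64 with a factor of 1, 9 with a factor of 4 and 11 with normexp. Bins called lower were 12 with slide as a random block, 1 with mode centring, 15 with tumour 11 turned and 0 to 9 with 1 tumour left out (0 without tumour 1, 3 or 7, 1 without 4, 6 or 9, 4 without 2, 9 without 11). Genes called lower were 75 with slide as a random block, 34 with normexp, 5 with mode centring, 11 without dim probes, 84 with tumour 11 turned and 0 to 70 with 1 tumour left out. Genes called higher were 2 with slide as a random block, 2 without dim probes, 0 with tumour 11 turned and 0 to 1 with 1 tumour left out (0 without 3 or 8). With tumours 4, 5 and 9 averaged as 1 sample, 0 bins and 3 genes were called lower and 0 genes higher. That average, calls of at least 5 probes, and totals of gains and losses without each tumour, were chosen after seeing the data, and the 5-probe rule left the share difference at 4.29. The cause of these shifts was not tested. Mode centring moved single arrays by -0.085 to 0.045. Of 96 values of focal or short segments under alternatives, 94 moved by less than their probe SD, and normexp gave 3.80 for the Snd1 run and 3.68 over Plxna4. Of 268 values of the markers, 265 moved by less than that, and Pot1a in tumour 11 changed sign with that array turned, to 0.27. Noise limits tumours 9 and 11: on a simulated chromosome of 9000 probes with a noise SD of 0.5, a shift of 0.3 over 300 probes was found in 2 of 20 runs and a shift of 0.8 over 60 probes in 16 of 20. Each value already pairs a tumour with its own liver on the same array, so the tests of means across tumours are paired ones. Because the series has 1 group, no comparison between groups of tumours was made.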

Other observations

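In the immunoglobulin kappa interval, between Il23r and Rpia (142 probes), the tumours minus their 1 Mb flanks averaged 0.025 ± 0.085 (SD, n = 11), with 6 of 11 above 0. Tumour 11 was the highest, at 0.23. Without it the mean was 0.0038, and with its sign turned the mean was -0.018, with 5 of 11 above 0. The T-cell receptor beta interval (61 probes) averaged 0.055 ± 0.070 by the same measure, with 9 of 11 above 0, the highest being 0.17 in tumour 8 and 0.16 in tumour 7. With tumour 11 turned, the T-cell receptor beta interval averaged 0.054, with 8 of 11 above 0. The intervals were chosen after the files were seen. Over Clec4a2 and Clec4b1 the 11 probes lost in tumour 1 read 0.69 in tumour 11, 0.21 in tumour 8, -0.50 in tumour 7, -0.42 in tumours 4 and 9 and from -0.25 to 0.067 in the other 5 tumours. With its sign turned, tumour 11 would read -0.69 there, beside -0.69 in tumour 1.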
